A study of Saccharomyces cerevisiae with 24 samples.

Results

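The large subunit of the yeast cytosolic ribosome is built from ribosomal RNA and many proteins, and the genes described here are the ones that encode those proteins. They were taken from the array annotation as every gene whose symbol was RPL followed by a number and, where there is one, the letter A or B, together with the 5 stalk genes RPP0, RPP1A, RPP1B, RPP2A and RPP2B. This gave 75 of the 5449 genes with a probe set. Another 6 of the 81 large subunit genes in the reference gene table were not analysed here. Of the 75 genes, 11 are single-copy and 64 carry an A or B in their name.

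Most large subunit proteins of budding yeast are encoded by a pair of paralogous genes, an inheritance of an ancient genome duplication, and the A and B proteins of a pair are often nearly identical. During growth these genes account for a large share of transcription, and they are activated together through Rap1, Fhl1, Ifh1 and Sfp1. Stress, heat included, lowers their transcripts for a time, as part of the general stress response of yeast.

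The cells were Saccharomyces cerevisiae of the strain BY4741, here called the wild type, and of 3 deletion strains: delta-pbf1, delta-pbf2 and delta-pbf1 delta-pbf2, called the double deletion below. PBF1 is TOD6 and PBF2 is DOT6. Their products are repressors of the Myb type, which recognise the PAC element found in front of many ribosome biogenesis genes. The array comparison addresses what the heat shock changes in each strain and how those changes depend on the repressors. Each strain was grown in 3 cultures at 25 °C, and each culture was split between cells collected at 0 min and cells collected after 20 min at 37 °C, which gives 8 groups of 3 arrays. No label states outright that the 0 and 20 min samples of one number came from one culture. This was assumed for all values given per culture. All deletion strains were set against the same wild type arrays, so their differences from the wild type share those values. The labels do not state how many clones of a deletion were used.

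The deletions were first checked on the arrays. For TOD6, wild type arrays averaged (geometric mean) 455 before and 162 after the shift, and the groups without PBF1 averaged 1.04 to 3.48. For DOT6 the wild type averages were 855 and 889, and those of the groups without PBF2 were 1.97 to 8.85. Background was set per array at the 95th percentile of the probe sets for genes outside S. cerevisiae, which was 9.02 to 11.6. A deleted gene passed it on 1 array only, DOT6 in the double deletion at 0 min with a signal of 11.9. All 75 large subunit genes were above background on all 24 arrays, with signals from 168 to 16852. They are bright probe sets: in the wild type at 0 min their median signal was 11013, while the brightest gene of an array reached 17425 to 22948. Whether such signals understate differences was not tested. For 12 of the genes the brightest probe set was of the type shared by similar sequences (suffix _s_at), so its signal can include the paralog. These genes were RPL1B, RPL2A, RPL4A, RPL7A, RPL11B, RPL14B, RPL18B, RPL20B, RPL21A, RPL35A, RPL41A and RPL42B.

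Heat shock lowered nearly every large subunit transcript in the wild type. In the fit across all genes with limma, 74 of the 75 genes were lower at 20 min at an adjusted p below 0.05, against 29.7% of all genes tested. RPL15B was the only one that rose, against 51% of all genes. The split of all genes depended on the scaling: 2752 were higher and 1600 lower as deposited, 2171 and 2015 after quantile normalization, 1845 and 1937 with hybridization control centring, and 420 and 2077 with spike-in centring. The count of large subunit genes that fell was 74 under each. The median change of the 75 genes was -1.97 on the log2 scale, while the median of all 5395 genes tested was 0.27 and that of the 52 small subunit genes was -1.83. The size of the fall varied widely: 69 genes were at least 2-fold lower, 37 at least 4-fold and 4 at least 8-fold. The lower and upper quartiles were -2.43 and -1.57. Arrays measure RNA relative to the total on each array, so these are changes relative to other transcripts. In RNA of a whole culture, fewer cells that express a gene and less of its RNA per cell cannot be told apart.

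**Figure D1:**
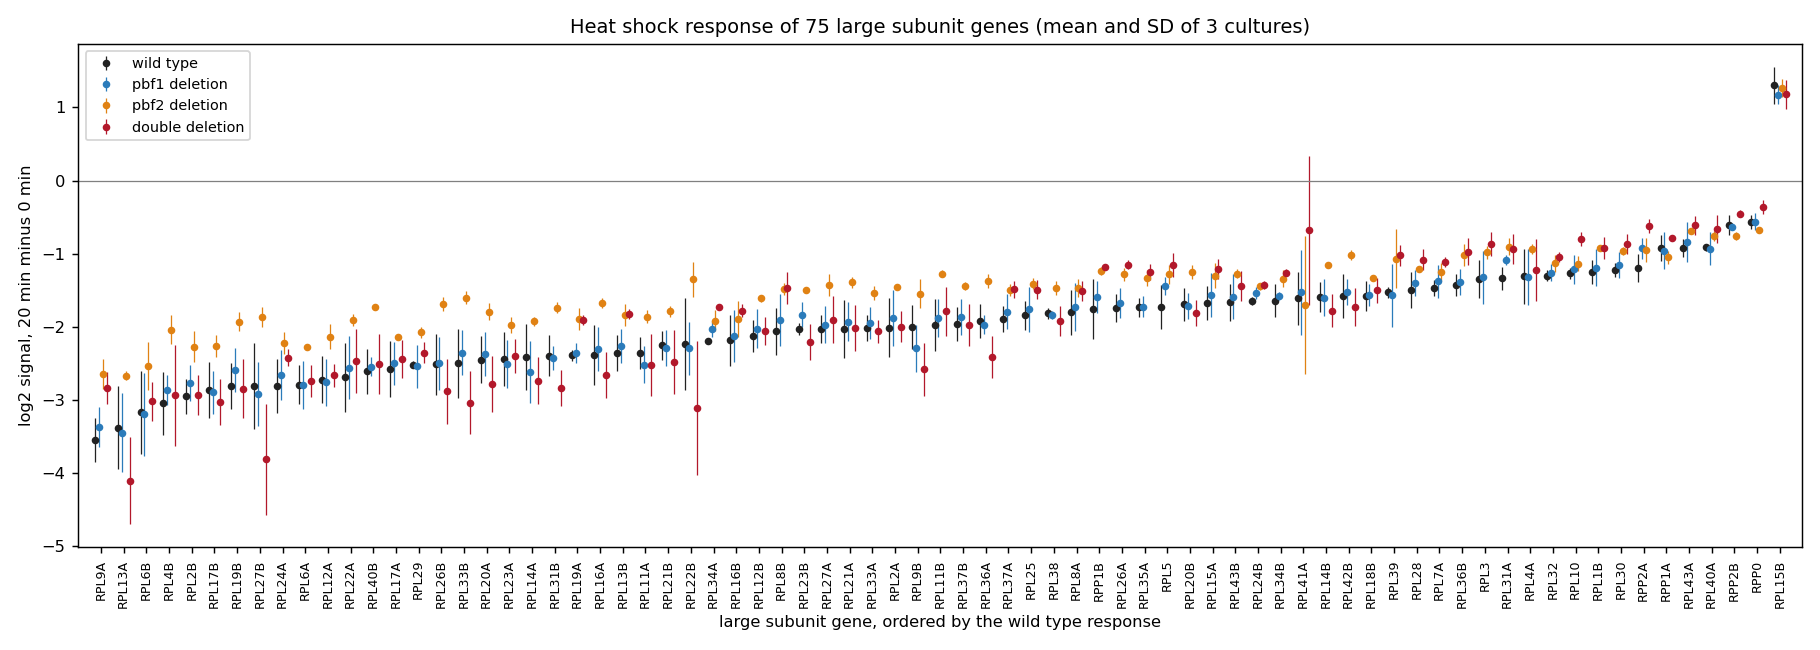
Change in log2 signal from 0 to 20 min for each of the 75 large subunit genes (x axis, ordered by the wild type response; y axis, log2), as points for the mean and bars for the SD of 3 cultures in each of the 4 strains. All genes but RPL15B lie below 0 in the wild type, the stalk genes RPP0 and RPP2B lie near the upper end, and the delta-pbf2 points lie above the wild type points for most genes.

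The deepest wild type fall was that of RPL9A. Its signal was 9791, 9511 and 9461 in the 3 cultures at 0 min and 1062, 758 and 691 at 20 min. All cultures at 20 min lay far under all cultures at 0 min, and the change was -3.54 ± 0.13 (log2, limma estimate and SE, adjusted p = 8.26e-16), an 11.7-fold fall. RPL13A followed with -3.38, RPL6B with -3.17 and RPL4B with -3.05. At the other end of the genes that fell were the stalk genes RPP0 at -0.56 and RPP2B at -0.61, then RPL40A at -0.91.

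RPL15B stood alone in its direction. Its signal was 718, 676 and 632 at 0 min and 1501, 1998 and 1542 at 20 min, so the groups did not overlap and the transcript rose by 1.30 ± 0.09 (limma, adjusted p = 2.75e-11). It rose in the deletion strains as well, by 1.18 in delta-pbf1, 1.27 in delta-pbf2 and 1.18 in the double deletion. With arrays centred on spike-in transcripts instead, the estimate stayed positive but no longer passed the test, with limma adjusted p from 0.199 to 0.761 over the 4 strains. Its paralog RPL15A fell in the same cultures, from 11012, 10783 and 11810 to 4079, 3333 and 3163, a change of -1.68 ± 0.11.

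**Figure D2:**
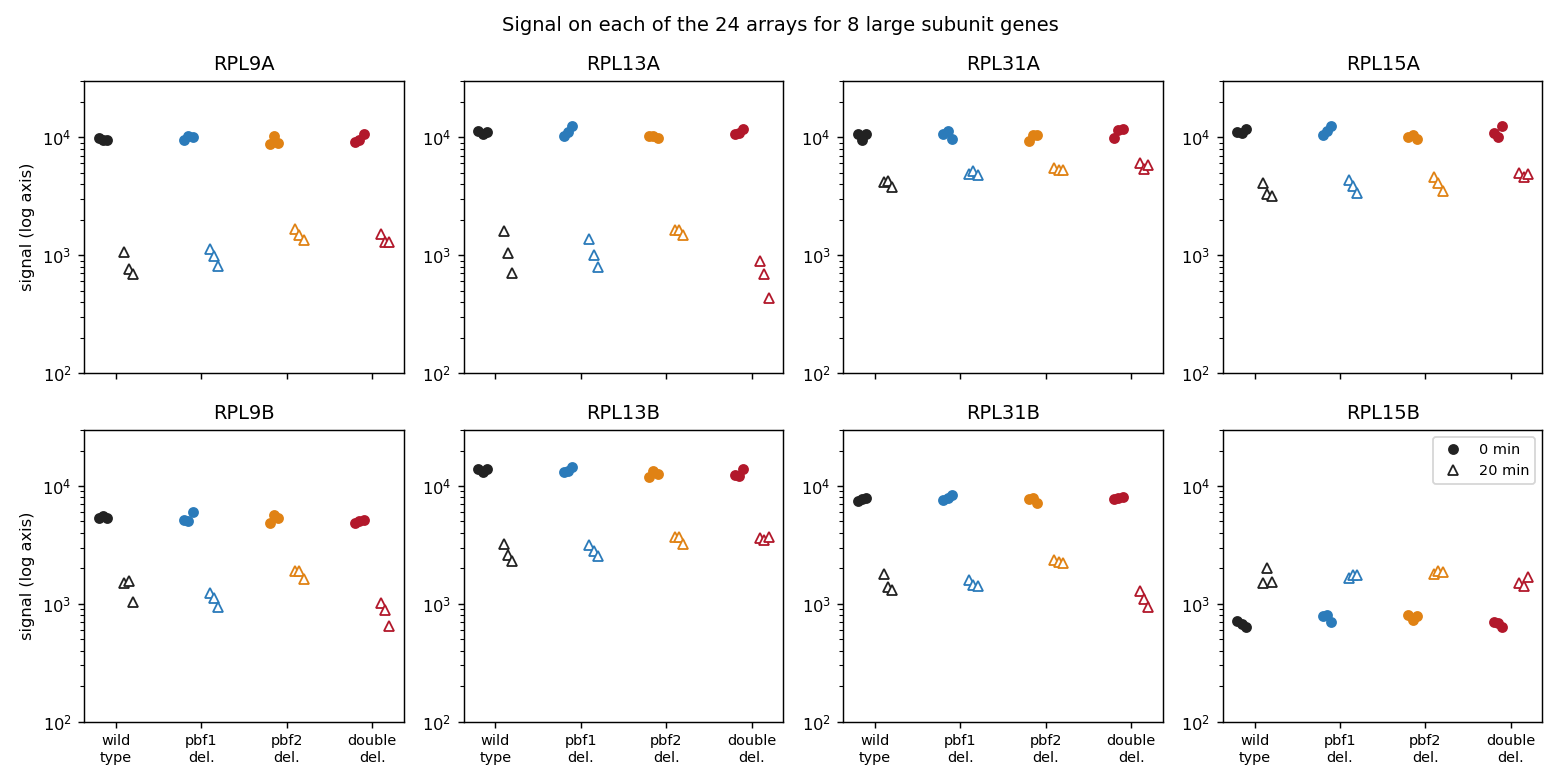
Signal on each of the 24 arrays (y axis, log scale) for 4 A genes (upper row) and their B paralogs (lower row), by strain on the x axis; filled circles are the 3 cultures at 0 min and open triangles the same cultures at 20 min. The triangles lie below the circles except for RPL15B, and those of RPL13A and RPL31B lie lowest in the double deletion while those of RPL13B and RPL31A lie highest there or nearly so.

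By role, the P stalk proteins, a flexible arm that recruits elongation factors to the ribosome, had the smallest fall. All 5 genes fell in the wild type, with a median of -0.93 and a range of -1.75 to -0.56. RPP0, the stalk's anchor, went from 12048, 11816 and 12565 to 7569, 8479 and 8629. The genes of the acidic proteins bound to it, paired here by name as paralogs, fell by different amounts. RPP1A changed by -0.93 and RPP1B by -1.75, RPP2A by -1.19 and RPP2B by -0.61. RPL12A and RPL12B, which encode the protein at the stalk's base, fell further, by 2.72 ± 0.12 and 2.13 ± 0.10 on the log2 scale (limma estimates and SE).

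The proteins that form the particle with 5S ribosomal RNA before it joins the subunit are encoded by RPL5, RPL11A and RPL11B. RPL5 went from 13573, 12387 and 13467 to 5191, 3492 and 3435 in the wild type, a change of -1.73, and RPL11A and RPL11B changed by -2.36 and -1.97. Around the peptidyl transferase centre, where peptide bonds form, RPL3 changed by -1.34, RPL10, which joins the subunit late in its maturation, by -1.27, and RPL2A and RPL2B by -2.01 and -2.95. The 13 measured genes of the nascent peptide tunnel and its exit all fell, with a median of -2.39 and a range of -3.05 to -1.31. RPL25, whose protein is the docking site of the signal recognition particle, changed by -1.84, and RPL39, which lines the tunnel, by -1.53. RPL40A and RPL40B both make the subunit protein fused to ubiquitin, yet RPL40A changed by -0.91 and RPL40B by -2.60. The 11 single-copy genes had a median of -1.49 and the 64 genes with an A or B name one of -2.03. These medians describe the lists and were not tested against each other.

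Nearly all of these genes fell in the deletion strains too. In delta-pbf1 74 of 75 were lower and 1 higher (all genes tested, 30.4% and 51.2%), with a median change of -1.87. In delta-pbf2 74 were lower and 1 higher (30.1% and 48.4%), with a median of -1.46. For the double deletion 73 were lower and 1 higher (30.9% and 48.5%), with a median of -1.81. The gene that did not pass in the double deletion was RPL41A, whose arrays spread widely: 2323, 2476 and 1112 at 0 min and 1192, 858 and 1524 at 20 min, an overlap of the groups, with an estimate of -0.68 ± 0.39 (limma, adjusted p = 0.118).

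The ends of the range held many of the same names. RPL13A, RPL9A and RPL6B had the 3 lowest estimates in delta-pbf1 (-3.44, -3.37 and -3.20) and in delta-pbf2 (-2.67, -2.65 and -2.53), followed by RPL27B at -2.91 in the first and RPL6A at -2.27 in the second. In the double deletion the lowest were RPL13A at -4.10, RPL27B at -3.81, RPL22B at -3.11 and RPL33B at -3.04. RPL22 is dispensable for growth in yeast. After RPL15B, the highest estimates belonged to RPP0, RPP2B and RPL43A in all 3 deletion strains, with RPP0 at -0.56, -0.67 and -0.36 in delta-pbf1, delta-pbf2 and the double deletion. RPP2B stood at -0.63, -0.75 and -0.45 and RPL43A at -0.84, -0.69 and -0.61.

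The depth of the fall differed between cultures. The median over the 75 genes was -1.72, -1.91 and -2.22 in the 3 wild type cultures, -1.64, -1.92 and -2.10 in delta-pbf1, -1.35, -1.50 and -1.50 in delta-pbf2, and -1.67, -1.82 and -2.004 in the double deletion. The 3 delta-pbf2 cultures lay above all wild type cultures, while the others overlapped with them. In each strain the culture numbered 1 had the smallest fall. Between cultures of the same number, the delta-pbf2 median was 0.37, 0.41 and 0.71 above that of the wild type. No label says that a number was shared by a day or a batch across strains.

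Before heat shock, no large subunit gene passed the limma test between a deletion strain and the wild type. Among all genes the shares called lower and higher at 0 min were 0.0741% and 0.0371% in delta-pbf1, 0.0371% and 0.204% in delta-pbf2, and 16% and 8.47% in the double deletion. The excess of lower genes in the double deletion, 862 against 457, was 651 against 630 with median centring and 220 against 234 with hybridization control centring. In delta-pbf2 5 of the 75 large subunit genes had a positive estimate at 0 min, with a median of -0.10 against 0.01 for all genes. The count of large subunit genes at an unadjusted p below 0.05 was 0, 3 and 0. The genes with the smallest p, none of which passed, were RPL15B (0.18) and RPL11A (0.13) in delta-pbf1, RPL30 (-0.16) and RPL24B (-0.12) in delta-pbf2, and RPL11A (0.20) and RPL27A (-0.15) in the double deletion, as log2 differences from the wild type.

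At 20 min the strains separated. Delta-pbf1 still had 0 genes called (0.278% of all genes higher, 0.352% lower), with 5 at an unadjusted p below 0.05. The nearest were RPL31A, higher by 0.29 on the log2 scale (limma, adjusted p = 0.0829), and RPL23B, by 0.25 (adjusted p = 0.142). In delta-pbf2, 46 of 75 genes were higher than in the wild type, or 61.3% against 8.64% of all genes, and RPP2B alone was lower, against 4.62%. Of the 52 small subunit genes 55.8% were higher and 0% lower. In the double deletion 31 large subunit genes were higher, or 41.3% against 20.9% of all genes, and 9 were lower, or 12% against 32.4%. The small subunit shares were 50% and 9.62%. With hybridization control centring 28 large subunit genes were higher and 0 lower in delta-pbf2, and 29 higher and 5 lower in the double deletion. Spike-in centring left 0 in each. Leaving out 1 array at a time moved these counts: in delta-pbf2 the higher genes numbered 60 without the wild type array of culture 1, 13 without that of culture 3, and 28 and 30 without the delta-pbf2 arrays of cultures 1 and 2. For the double deletion the lower genes numbered 16 without the wild type array of culture 3, 14 without its own array of culture 1, and 4 without the wild type array of culture 1 or its own of culture 3.

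Among the called genes, the largest differences of delta-pbf2 from the wild type at 20 min were those of RPL4B, RPL40B, RPL9A, RPL27B, RPL33B and RPL19B. RPL4B, whose protein reaches into the exit tunnel, had signals of 1330, 1073 and 1299 against 799, 618 and 400, and the strains did not overlap. The difference was 1.08 ± 0.25 on the log2 scale (limma, adjusted p = 0.00667). RPL40B followed with 0.95, RPL9A with 0.86, RPL27B with 0.83, RPL33B with 0.81 and RPL19B with 0.74. RPL22B had an estimate of 0.91 but did not pass (limma, adjusted p = 0.0607). RPP2B had 6149, 6654 and 6000 against 6885, 7636 and 7806 in the wild type, a difference of -0.25 ± 0.07 (limma, adjusted p = 0.0230). That call held in 2 of the 6 fits that left out 1 array, and the call of RPL27B in 1 of 6.

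In the double deletion at 20 min the genes parted in both directions. Highest among the called genes were RPL9A at 0.73, RPP2A at 0.62, RPP1B at 0.59, RPL5 at 0.58, RPL19A at 0.56 and RPL8B at 0.54. RPL41A had a higher estimate, 0.81, that did not pass (limma, adjusted p = 0.0879). RPP2A had signals of 5384, 5631 and 5997 against 3910, 3292 and 3878. Lowest were RPL27B at -1.03, RPL22B at -0.97, RPL13A at -0.72, RPL9B at -0.68, RPL36A at -0.57 and RPL33B at -0.56. RPL27B had 992, 638 and 348 against 1827, 1202 and 861, so that 1 culture of the double deletion lay inside the wild type range. RPL36A had 2086, 1805 and 1434 against 2955, 2632 and 2257, with no overlap. The calls of RPL22B, RPL13A and RPL33B held in 3, 4 and 4 of the 6 fits that left out 1 array, and those of the other lowest and highest genes named here in all 6.

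The difference in the heat shock response itself was tested as an interaction contrast, the change from 0 to 20 min in a deletion strain minus that in the wild type. For delta-pbf1 no gene passed (0% of all genes in either direction), and 1 large subunit gene had an unadjusted p below 0.05. The smallest p values belonged to RPL31A, with a difference of 0.25 ± 0.11, and RPP2A, with 0.27 ± 0.14 (limma, adjusted p = 0.999 for both). The cultures lay above those of the wild type for 2 genes and below for 0, against 5.32% and 3.26% of all genes.

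For delta-pbf2, 15 genes had a smaller fall than in the wild type and 0 a deeper one, against 1.5% and 0.204% of all genes. Among small subunit genes the shares were 17.3% and 0%, against 20% and 0% of the large subunit genes. Of the 75 genes, 70 had a positive estimate and 59 an unadjusted p below 0.05, with a median of 0.46 against -0.02 for all genes. The median difference from the wild type was -0.10 at 0 min and 0.36 at 20 min. The responses of the 3 delta-pbf2 cultures lay above those of all 3 wild type cultures for 60 genes and below them for 0, against 12.2% and 11.5% of all genes. The count of calls depended on the arrays and the fit. It was 5 with the culture as a block, 48 without the wild type array of culture 1 at 20 min and 2 to 10 without any other single array, and 0 when arrays were centred on the hybridization or spike-in controls. The distance between the median of the large subunit genes and that of all genes was 0.48. Centring shifts all genes of an array alike and cannot change this distance. After quantile normalization, which can change it, the distance was 0.45.

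Among the 15 called genes RPL9A had the largest difference, 0.90 ± 0.18 (limma, adjusted p = 0.0144). RPL4B and RPL27B had higher estimates, 1.01 and 0.95, and RPL33B one of 0.90, and none of them passed. The 20 min signals of RPL9A in delta-pbf2 were 1659, 1496 and 1332 against 1062, 758 and 691 in the wild type. RPL19B followed with 0.88, RPL40B with 0.87, RPL11B with 0.70, RPL2B with 0.68 and RPL31B with 0.65. RPL19A, with a smaller difference of 0.50 ± 0.09, had the smallest adjusted p, 0.00487 by limma. When each of the 12 arrays of the contrast was left out in turn, RPL19A and RPL23B passed in all 12 fits and RPL9A in 11, while RPL11B and RPL40B passed in 1. The other called genes were RPL20B, RPL26A, RPL27A, RPL31A, RPL33A, RPL35A and RPL42B. By role, 6 of the 13 tunnel genes passed, 1 of the 3 5S particle genes (RPL11B), 1 of the 4 genes around the peptidyl transferase centre (RPL2B), and RPL40B. None of the 5 stalk genes did: RPP1B had an estimate of 0.51 and RPP0, RPP1A and RPP2B had estimates of -0.11, -0.12 and -0.15. All 15 genes carry an A or B, and 0 of the 11 single-copy genes passed, with a median of 0.35 against 0.50 for the 64 others.

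For the double deletion, 24 genes had a smaller fall and 3 a deeper one, against 15% and 12.8% of all genes. Among small subunit genes the shares were 42.3% and 1.92%, against 32% and 4% of the large subunit genes. The large subunit median was 0.15, with 52 of 75 estimates positive. The cultures lay above those of the wild type for 27 genes and below for 0, against 20% and 19% of all genes. The counts were 6 and 0 when arrays were centred on the hybridization controls, and 0 and 0 on the spike-in controls. Without 1 array at a time they ranged from 18 to 29 and from 1 to 8. Deeper falls numbered 8 without the wild type array of culture 3 at 20 min and 7 without the double deletion array of culture 1 at 20 min. Leaving out culture 1 of the wild type or culture 3 of the double deletion at 20 min left 1.

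**Figure D3:**
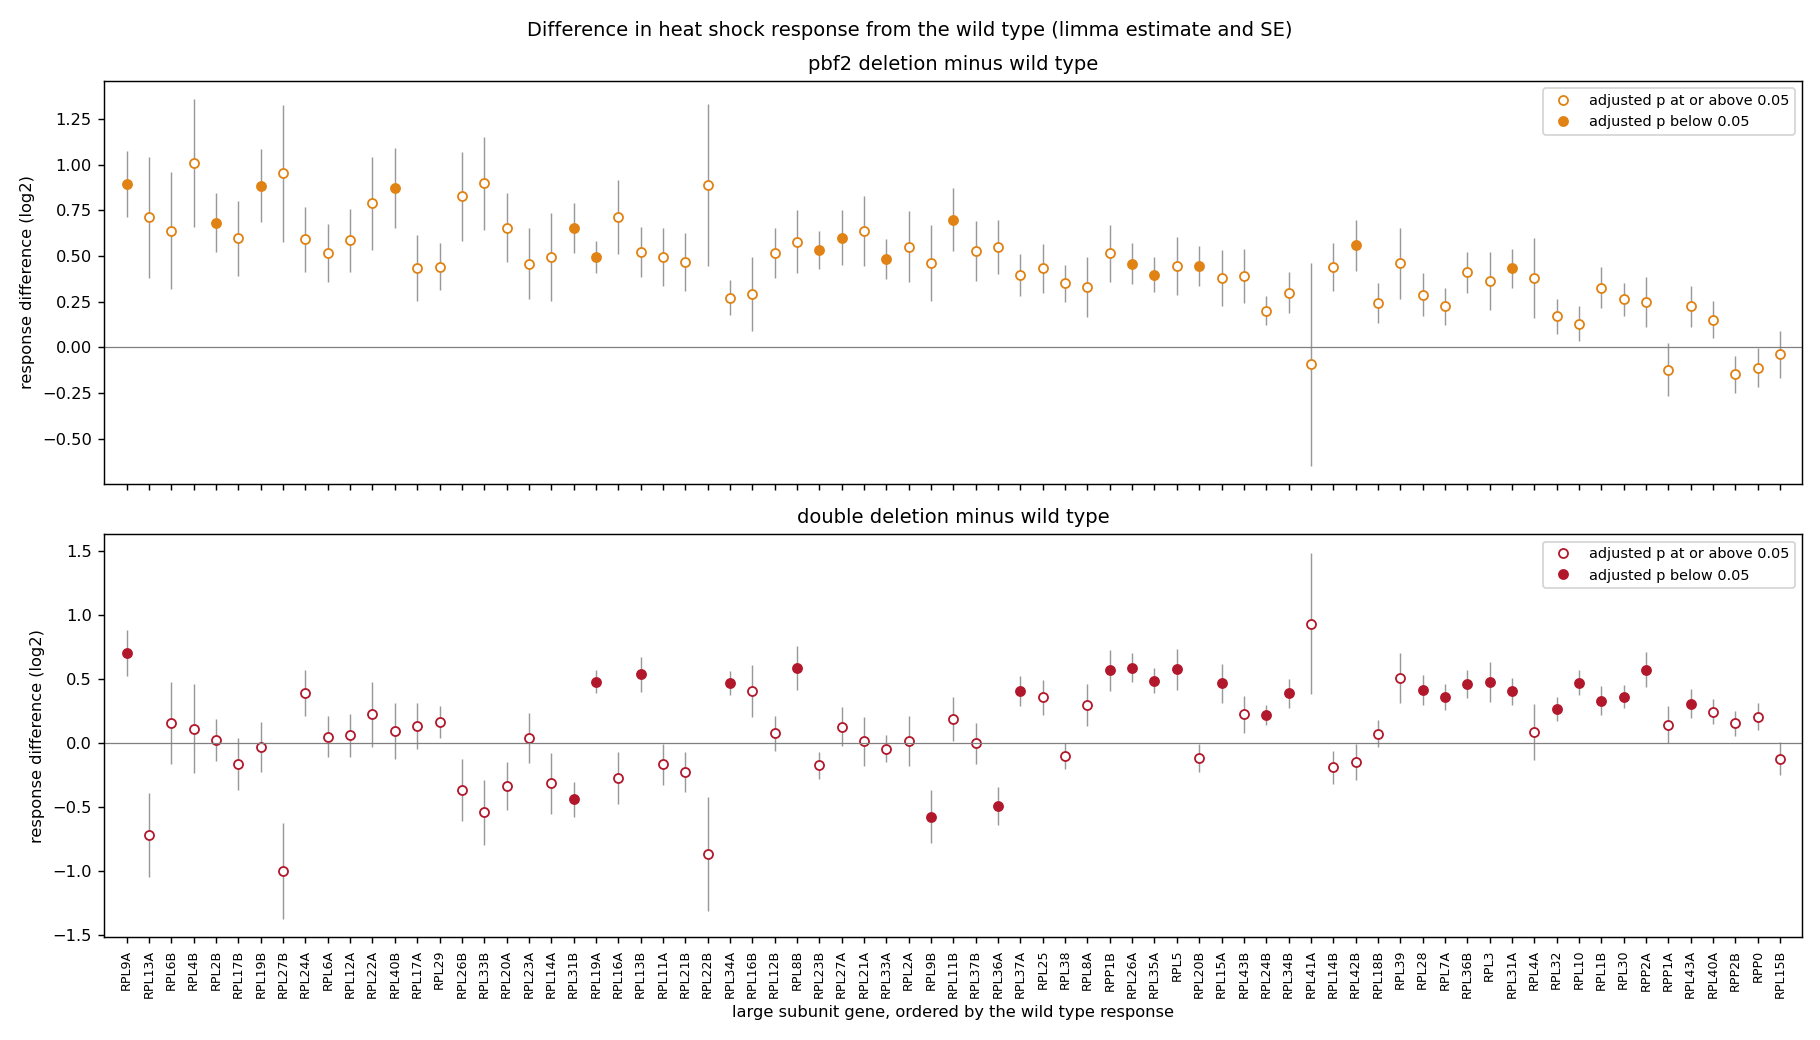
Difference in the heat shock response from the wild type (y axis, log2; limma estimate with its SE as bars) for the 75 large subunit genes in the order of their wild type response, for delta-pbf2 (upper panel) and the double deletion (lower panel); filled points passed an adjusted p of 0.05. The estimates are positive for 70 genes in delta-pbf2 and for 52 in the double deletion, where 3 of the negative ones passed.

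Among the called genes the largest positive differences in the double deletion were those of RPL9A at 0.70 ± 0.18, RPL26A at 0.59 ± 0.11, RPL8B at 0.59, and RPL5, RPP2A and RPP1B at 0.57 each. RPL41A had an estimate of 0.93 ± 0.55 that did not pass. RPL26A, with a protein near the tunnel exit, had 20 min signals of 5191, 5092 and 5523 against 4119, 3620 and 3258 in the wild type, and the limma adjusted p was 0.000521. RPL5 had 6041, 5976 and 5766 against 5191, 3492 and 3435. RPL3, RPL10 and RPL15A were also among the called genes, with differences of 0.48, 0.47 and 0.47. The call of RPL3 held in 5 of the 12 fits that left out 1 array and not with the culture as a block (limma, adjusted p = 0.0512). RPL10 averaged (geometric mean) 8036 at 20 min against 5853, with no overlap between the strains. The 3 genes with a deeper fall were RPL9B at -0.58 ± 0.21 (limma, adjusted p = 0.0423), RPL36A at -0.49 ± 0.15 (adjusted p = 0.0150) and RPL31B at -0.44 ± 0.14 (adjusted p = 0.0208). RPL36A kept its call in all 12 fits that left out 1 array, RPL31B in 10 and RPL9B in 3. For each of these 3 genes the responses of the double deletion cultures overlapped with those of the wild type cultures. RPL25 (0.35), RPL40A (0.24), RPL40B (0.09), RPL12A (0.06), RPL12B (0.07), RPL11A (-0.17), RPL11B (0.18), RPP0 (0.21), RPP1A (0.14), RPP2B (0.15) and RPL15B (-0.12) did not pass. Of the single-copy genes 6 of 11 had a smaller fall and 0 a deeper one, with a median of 0.36. Among the 64 genes with an A or B name the counts were 18 and 3, with a median of 0.10.

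The 2 genes of a pair were compared within each array, as the log2 signal of A minus that of B. The change of this difference from 0 to 20 min, called the A minus B response, is not touched by how an array as a whole is scaled, and it says nothing of the level of A against B. Of the paralogs, 29 pairs had both genes measured, and 23 of these pairs rested on probe sets not marked as shared. Exchanging the times within each of the 12 cultures gave an exact permutation test per pair, two-sided and unadjusted over the 29 pairs, with a smallest possible p of 0.000488.

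The signals of paralogs commonly changed in heat shock by different amounts. The exact permutation p was below 0.05 for 26 of the 29 pairs, and for 20 of the 23 with no shared probe set. In 21 pairs the sign was the same in all 12 cultures: the A gene fell further, or rose less, in 11 of them and the B gene in 10. Of the 23 pairs with no shared probe set this held for 15, with the A gene falling further in 8 and the B gene in 7. The median size of the A minus B response over the 29 pairs was 0.62 on the log2 scale, with a range of 0.10 to 2.67. In RPL2, RPL4, RPL11, RPL14, RPL20 and RPL21 the gene on the shared probe set was the one that fell less. Over the 75 genes in the wild type, the Spearman correlation of 0 min signal with response was 0.34 (positive where brighter genes fell less). The Pearson correlation was -0.23. How far shared probe sets or bright signals shape the A minus B responses was not tested.

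**Figure D4:**
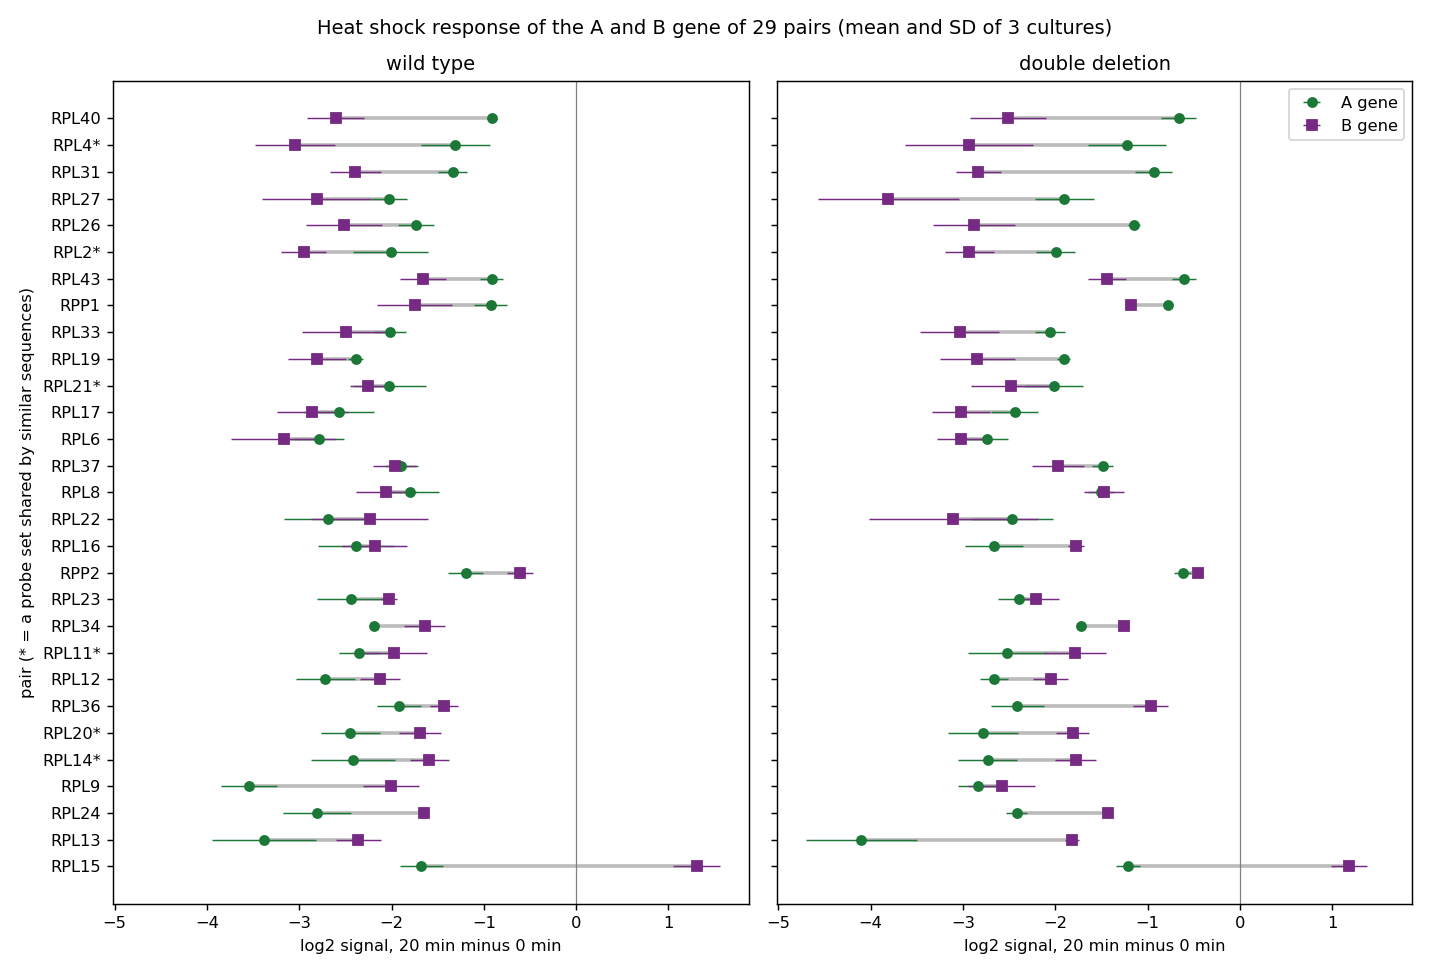
Heat shock response of the A gene (circle) and the B gene (square) of 29 pairs (y axis). The x axis gives the change in log2 signal from 0 to 20 min, as mean and SD of 3 cultures. The wild type is on the left and the double deletion on the right. Pairs are ordered by their A minus B response averaged over the cultures of all strains. An asterisk marks pairs with a probe set shared by similar sequences. The grey bar joining the 2 genes is longest for RPL15, and compared with the wild type the double deletion has a longer bar for RPL13, RPL27, RPL31 and RPL36 and a shorter one for RPL9.

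RPL15 had the largest A minus B response, -2.67 averaged over the 12 cultures. In each of the 12 cultures RPL15A fell while RPL15B rose, and the 3 wild type cultures gave -2.98 ± 0.42 (SD, n = 3). RPL40 was next, at 1.53 in favour of RPL40A. In the wild type RPL40A went from 11887, 11498 and 11464 to 6474, 6229 and 5872, and RPL40B from 8980, 9225 and 8805 to 1685, 1699 and 1132. RPL40A fell 1.88-fold and RPL40B 6.08-fold. RPL4 gave 1.52, with RPL4A on a probe set shared by similar sequences. RPL13 gave -1.33, RPL31 gave 1.28 and RPL27 gave 1.02, and in these 3 pairs the sign also held in all 12 cultures.

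The pairs with the smallest differences were RPL22 at -0.16 (exact permutation p = 0.332), RPL37 at 0.14 (p = 0.0547) and RPL8 at 0.10 (p = 0.0464). The RPL22 value differed in sign between strains: it was -0.45 in the wild type, -0.26 in delta-pbf1 and -0.55 in delta-pbf2, but 0.64 ± 0.51 (SD, n = 3) in the double deletion. The strain means of RPL8 and RPL37 lay between -0.06 and 0.48. Where a shared probe set could be replaced by another one of the same gene, in RPL2, RPL11, RPL14, RPL20 and RPL21, the sign of the mean over 12 cultures stayed and the size was lower in RPL2 (0.24 for 0.89), RPL11 (-0.37 for -0.59), RPL20 (-0.34 for -0.73) and RPL21 (0.31 for 0.36). It was -0.90 for -0.89 in RPL14. For RPL2, 7 of the 12 cultures then had the positive sign, and for RPL21 10. In RPL11 and RPL20 1 culture each was then positive, so only RPL14 kept the same sign in all 12. This alternative was chosen after seeing the data.

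How far apart the paralogs of a pair responded was then set against the wild type in each deletion strain. With 3 cultures against 3 the exact permutation test cannot go below 0.1, so these differences are descriptions, and the counts below have no share over other pairs to be read against. In the double deletion the A minus B responses of 13 of the 29 pairs did not overlap with those of the wild type, in delta-pbf2 those of 8, and in delta-pbf1 those of 2. The differences from the wild type ranged from -1.26 (RPL13) to 1.28 (RPL9) in the double deletion, from -0.72 (RPL40) to 0.44 (RPL9) in delta-pbf2, and from -0.27 (RPL23) to 0.46 (RPL9) in delta-pbf1. The median size over the 29 pairs, taken per culture, was 0.67 ± 0.13 in the wild type, 0.68 ± 0.07 in delta-pbf1, 0.52 ± 0.05 in delta-pbf2 and 0.85 ± 0.15 in the double deletion (mean ± SD, n = 3 cultures).

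**Figure D5:**
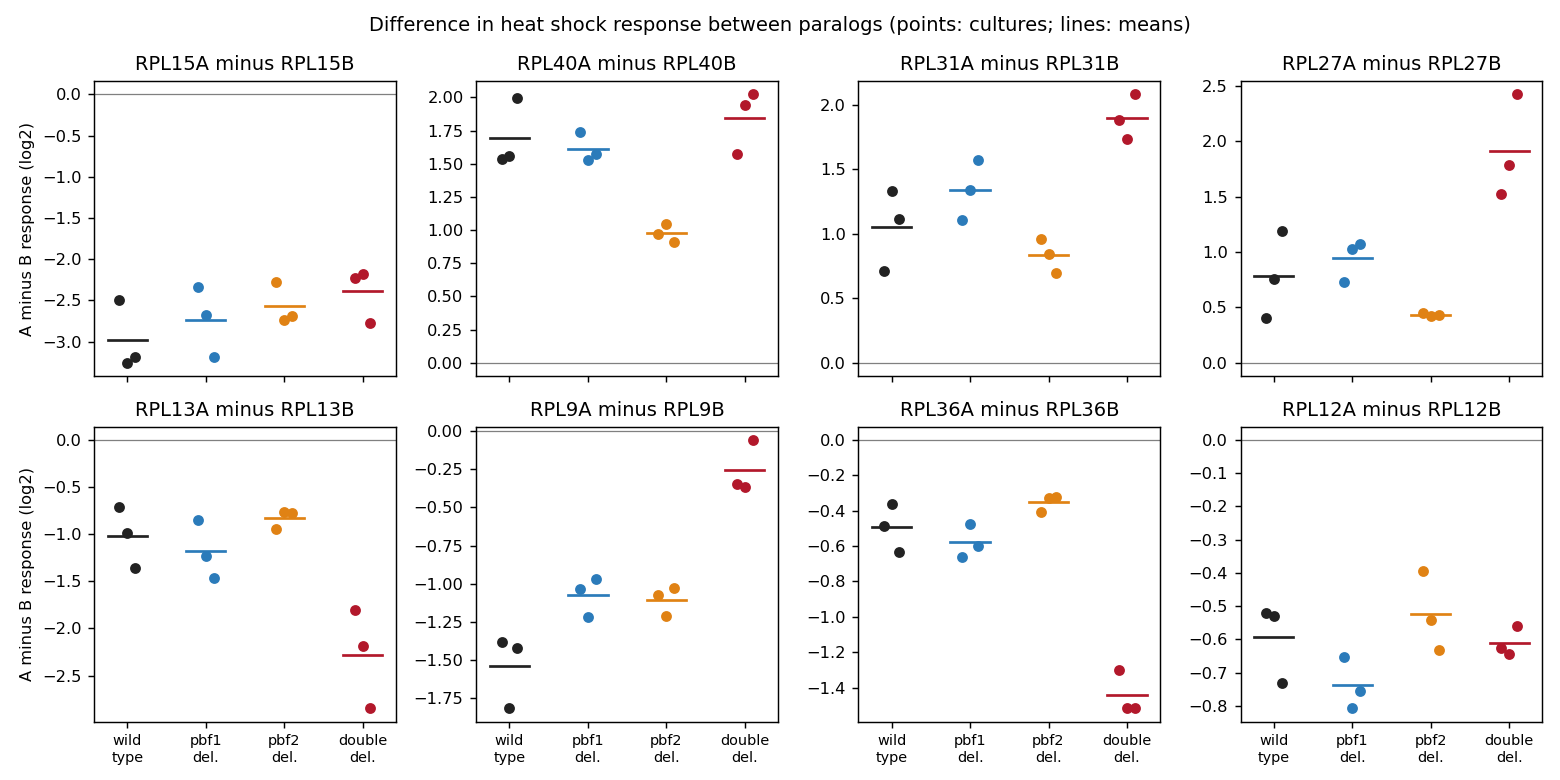
A minus B response (y axis, log2; each panel has its own scale) in each of the 12 cultures as points and the mean of each strain as a line, for 8 pairs. The double deletion lies apart from the wild type in RPL31, RPL27, RPL13, RPL9 and RPL36, and delta-pbf2 lies nearer to 0 in RPL40. In RPL9 delta-pbf1 and delta-pbf2 lie apart from the wild type as well. In RPL12 each deletion strain overlaps with the wild type.

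RPL13 and RPL9 moved most. RPL13A fell further than RPL13B in the wild type, and the A minus B response was -1.02 ± 0.33 there, -1.18 ± 0.31 in delta-pbf1, -0.83 ± 0.10 in delta-pbf2 and -2.28 ± 0.53 in the double deletion (SD, n = 3). At 20 min RPL13A stood at 888, 690 and 433 in the double deletion against 1590, 1051 and 707 in the wild type, while RPL13B stood at 3634, 3503 and 3701 against 3194, 2599 and 2290. The A gene was thus on the low side and the B gene on the high side, without overlap only for the B gene. In RPL9 the move was the other way. The A minus B response was -1.54 ± 0.24 in the wild type, -1.07 ± 0.13 in delta-pbf1 and -1.10 ± 0.10 in delta-pbf2. Both of these deletion strains lay apart from the wild type. The value was -0.26 ± 0.17 in the double deletion. RPL9A was higher there, at 1513, 1288 and 1295 against 1062, 758 and 691, and RPL9B lower, at 1027, 888 and 650 against 1504, 1562 and 1044. The 20 min signals of neither gene overlapped between the strains, while the responses of the RPL9B cultures did overlap.

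RPL31 and RPL36 showed the same parting. The A minus B response of RPL31, which encodes a protein at the tunnel exit, was 1.05 ± 0.32 in the wild type and 1.90 ± 0.17 in the double deletion. At 20 min RPL31A had 6053, 5376 and 5819 against 4159, 4249 and 3785, and RPL31B had 1275, 1110 and 945 against 1780, 1379 and 1317. For RPL36 the values were -0.49 ± 0.14 and -1.44 ± 0.13, with RPL36B at 6311, 5956 and 5488 against 5133, 4386 and 4304. In the fit across all genes, both members of a pair passed the interaction contrast of the double deletion in 4 pairs, and in 3 of those, RPL9, RPL31 and RPL36, in opposite directions. These 3 pairs were picked out after their values were seen. The responses of the gene with the deeper fall (RPL9B, RPL31B and RPL36A) overlapped between the cultures of the 2 strains. RPL9B lost its call with the culture as a block (limma, adjusted p = 0.0541), and RPL9B, RPL31B and RPL36A lost theirs with hybridization control centring (0.111, 0.170 and 0.119). In 10 pairs 1 member passed and in 15 neither did. In delta-pbf2 both passed in 2 pairs, 1 in 9 and neither in 18, with 0 pairs in opposite directions.

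RPL27 and RPL26 widened too. RPL27 went from 0.78 ± 0.39 in the wild type to 1.91 ± 0.46 in the double deletion, and RPL26 from 0.78 to 1.73. RPL40 narrowed in delta-pbf2, to 0.98 ± 0.07 from 1.70 ± 0.26, as RPL40B stood at 2695, 2899 and 2991 at 20 min against 1685, 1699 and 1132. RPL12 did not separate any deletion strain from the wild type, with -0.59, -0.74, -0.52 and -0.61 in the wild type, delta-pbf1, delta-pbf2 and the double deletion. Its delta-pbf1 cultures lay below those of the other deletion strains. RPL15 was at -2.98 in the wild type and at -2.74, -2.56 and -2.39 in the 3 deletion strains, and these overlapped.

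Genes that serve the large subunit proteins were read from 3 lists. Dedicated chaperones bind single ribosomal proteins before they enter the nucleus or the subunit: Rrb1 binds Rpl3, Sqt1 binds Rpl10, Syo1 binds Rpl5 and Rpl11, Acl4 binds Rpl4, and Bcp1 binds Rpl23. All 5 genes fell in the wild type, against 29.7% of all genes, with a median of -2.18. All 5 had a smaller fall in the double deletion, against 15% of all genes, with a median difference of 1.19 against -0.005 for all genes. The largest were SYO1 at 1.74 ± 0.29, ACL4 at 1.69 ± 0.14, RRB1 at 1.19 and BCP1 at 1.14. Their client genes RPL5 (0.57) and RPL3 (0.48) had smaller falls as well, while RPL4A (0.08), RPL4B (0.11), RPL11A (-0.17), RPL11B (0.18), RPL23A (0.04) and RPL23B (-0.18) did not pass. ACL4 also passed in delta-pbf2, at 0.80 (limma, adjusted p = 0.00437).

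Of 11 measured factors of the stalk and of late subunit maturation, 10 fell in the wild type (29.7% of all genes), and 6 had a smaller fall in the double deletion (15% of all genes). YVH1 at 2.29, ARX1 at 1.73, NMD3 at 1.56 and NOG1 at 1.00 were the largest. Yvh1 releases Mrt4 from the site that the stalk protein P0 then takes, Nmd3 is the nuclear export adaptor of the subunit, and Arx1 is an export factor near the tunnel exit. YVH1 passed in delta-pbf2 as well, at 0.80. Among 12 regulators of ribosomal protein genes, 4 rose in the wild type, against 51% of all genes: CRF1 by 1.54, STB3 by 0.93, SFP1 by 0.43 and HMO1 by 0.21. FHL1 and SCH9 fell, by 0.73 and 0.55, against 29.7% of all genes. TOD6 had a lower estimate, -1.49 ± 0.87, that did not pass (limma, adjusted p = 0.121). Its wild type signals were 575, 466 and 351 at 0 min and 303, 126 and 112 at 20 min, without overlap. That SE is shared with the groups in which TOD6 is deleted and its signal lay under background. In the double deletion IFH1 (0.62), ABF1 (0.46) and STB3 (0.43) had higher responses than in the wild type, against 15% of all genes, and the other 9, TOD6 and DOT6 included, did not pass. No regulator passed in delta-pbf2 or delta-pbf1.

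The authors' deposited table of log2 ratios between the times gave medians over the 75 genes of -1.74 in the wild type, -1.67 in delta-pbf1, -1.17 in delta-pbf2 and -1.51 in the double deletion. Negative ratios made up 74 of the 75 in each strain of the authors' deposited table.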

How the data were processed

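RNA of 24 samples from 12 cultures was hybridized to Affymetrix yeast arrays that also hold probe sets for genes outside S. cerevisiae. The deposited values are intensity values, 1 signal per probe set, and the authors computed them by the MAS5 algorithm, as the submitters' processing notes record. Images were extracted in GeneChip Operating Software 1.4, per the deposited text file. Their mean, trimmed by 2% at each end, was 500.3 to 500.4 on each array. The authors' deposited table of ratios holds log2 values, made with the GoldenSpike procedure per the same text file. Its false discovery rates were not used.

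Of 10928 probe sets, 5498 name an S. cerevisiae gene, and 12 symbols were updated through the R64 gene table. The brightest probe set per gene was kept. Log2 signals without a pseudocount were fitted with limma 3.58.1 in R 4.3.3 (8 group means, eBayes with trend, 16 residual degrees of freedom), and p-values were adjusted by Benjamini-Hochberg over the 5395 genes whose mean log2 signal exceeded 2.35. Permutation tests were run in numpy 2.4.6, and scipy 1.17.1 ranked signals for the quantile normalization of the paralog values. Tables were handled in pandas 2.3.3 and figures drawn in matplotlib 3.10.9, all under Python 3.11.15. The fit was tested on simulated data.

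The genes, lists and tests were chosen with earlier results of these data known. Named by rule were 17 genes of central roles, the 4 lowest and 4 highest responses per strain, up to 6 and 6 called genes per strain difference (or the 2 smallest p where none passed), the 6 largest and 3 smallest paralog differences, and up to 4 partner genes a list. The labels say that cultures were divided between the times, and samples of one number were assumed to share a culture. Their deviations from the group means correlated by -0.04 to 0.19. P-values measure the spread between cultures of a strain. The alternatives were other scalings, filters, pseudocounts, variance models and probe sets, culture or number as a block, and leaving out each array. The number of arrays limits the precision. Promoter motifs were not analysed here, and array dates were not used here.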

Additional observations from a re-analysis of the deposited data

Results flagged for a closer look

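The results below differ between a deletion strain and the wild type by the interaction contrast of limma at an adjusted p below 0.05. In delta-pbf2 these were the count of 15 large subunit genes with a smaller fall and, as log2 differences, RPL9A (0.90), RPL19B (0.88), RPL40B (0.87), RPL11B (0.70), RPL2B (0.68) and RPL31B (0.65), with ACL4 (0.80) and YVH1 (0.80) among the partner genes. In the double deletion these were the counts of 24 genes with a smaller and 3 with a deeper fall. The smaller falls were those of RPL9A (0.70), RPL26A (0.59), RPL8B (0.59), RPL5 (0.57), RPP2A (0.57) and RPP1B (0.57), and the deeper ones those of RPL9B (-0.58), RPL36A (-0.49) and RPL31B (-0.44). RPL31B thus lay above the wild type in delta-pbf2 and below it in the double deletion. The difference between these 2 strains was not tested. Partner genes with a higher response in the double deletion were SYO1 (1.74), ACL4 (1.69), RRB1 (1.19), BCP1 (1.14), YVH1 (2.29), ARX1 (1.73), NMD3 (1.56), NOG1 (1.00), IFH1 (0.62), ABF1 (0.46) and STB3 (0.43).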

How the results depend on the processing

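Counts of large subunit genes that fell in heat shock stayed at 73 or 74 under all alternatives run. Medians of the fall moved with the scaling, given here for the wild type, delta-pbf1, delta-pbf2 and the double deletion in turn. They were -2.24, -2.14, -1.70 and -2.10 with hybridization control centring, and -2.82, -2.90, -2.13 and -2.79 with spike-in centring. Median centring gave -2.15, -2.08, -1.66 and -2.08, and quantile normalization gave -1.76, -1.66, -1.25 and -1.65. The median of all genes moved as well, in the wild type from 0.27 to 0.08 (median), -0.004 (hybridization) and -0.59 (spike-in). The large subunit median minus it was -2.24 in each, since centring shifts all genes of an array alike. After quantile normalization it was -1.79. Spike-in centring left 0 genes that rose in each strain. Smaller falls in delta-pbf2 numbered 5 with median centring, 0 with hybridization and spike-in centring, 6 with eBayes without trend and 5 with the culture as a block. The double deletion had 13, 6 and 0 smaller falls with median, hybridization and spike-in centring, 0 deeper ones with either control, and 21 and 2 with the culture as a block. At 20 min delta-pbf1 had 1 higher gene after quantile normalization. Delta-pbf2 had 28 higher with hybridization and 0 with spike-in centring, 0 lower with either, and 2 lower with the replicate number as a block. The double deletion had 5 lower with hybridization centring, and 0 lower and 0 higher with spike-in centring. The blocks changed no other count of large subunit genes by over 1.5 times. Over all genes, the number block moved delta-pbf1 at 20 min from 15 higher and 19 lower to 69 and 38, and the culture block moved the deeper falls of delta-pbf2 from 11 to 7. Spike-in centring turned RPL27A at 0 min in the double deletion to 0.21, and quantile normalization turned the RPL22 pair to 0.0802 and gave 4 pairs apart from the wild type in delta-pbf1. The causes were not tested. Leaving out 1 array at a time gave 2 to 48 smaller falls in delta-pbf2, 18 to 29 smaller and 1 to 8 deeper in the double deletion, and at 20 min 0 to 3 higher in delta-pbf1, 13 to 60 higher and 0 to 2 lower in delta-pbf2, and 24 to 33 higher and 4 to 16 lower in the double deletion. Heat shock medians ranged from -2.08 to -1.82, -1.99 to -1.79, -1.47 to -1.42 and -1.88 to -1.76, and medians of the response difference from -0.03 to 0.17, 0.37 to 0.54 and 0.02 to 0.25. The paralog count ranged from 25 to 28 without 1 culture and was 28 with no replicate block.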
